A study of Homo sapiens with 12 samples.

Results

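High mobility group (HMG) proteins are small, abundant chromatin proteins, and the 10 genes that encode their HMGA, HMGB and HMGN families were followed here, out of 65975 genes in the expression table. The genes were chosen by name, and the set was drawn up because HMGB2 was much lower in RD cells after KDM3A depletion. The comparison within RD cells therefore chose the set, and RD values of the 10 genes are given as a description without a test. For other genes the text counts calls in RD from a fit across all genes, and since these lists were drawn up with the RD results known, the counts are a description too. Whether the HMG genes changed was tested in Rh30 cells, whose libraries the stated reason for the choice did not use. All genes and lists were nevertheless chosen with earlier results of these data known, so the Rh30 counts and p-values may not be free of that knowledge.

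HMGA proteins bind the minor groove of AT-rich DNA through short AT-hook motifs. HMGB proteins bend DNA with tandem HMG boxes, and HMGN proteins bind directly to the nucleosome, where they compete with linker histone H1 for chromatin. All are known as architectural proteins that loosen or remodel chromatin fibers rather than as sequence-specific activators, and several of them are abundant in embryonic and tumor cells.

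Gene expression was profiled by RNA-seq of polyA RNA in rhabdomyosarcoma (RMS) cells after depletion of KDM3A, a histone demethylase of the Jumonji family, to define the genes that it controls. RD is a fusion-negative RMS (FN-RMS) cell line and Rh30 is a fusion-positive (FP-RMS) line. Cells of each line were transduced with lentivirus encoding either a control shRNA (Scramble) or KDM3A-sh2, the 1 shRNA against KDM3A used, and selected in puromycin at 1 ug/ml, and each of the 4 groups has 3 libraries. Each RMS subtype is represented by 1 line, and each line was grown in its own medium (DMEM for RD, RPMI for Rh30), so that subtype, line and medium cannot be told apart. Whether separate cultures stand behind the 3 libraries of a group is not given in the sources used here, and p-values then measure the spread between these libraries, which may be technical. The headings of all 3 Rh30 Scramble libraries end in 1, while those of each other group end in 1 to 3. The Rh30 Scramble libraries were taken as replicates 1 to 3 from their sample titles.

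Expression is given as FPKM, fragments divided by exon length and by library size, which allows levels to be compared between genes per length but hides the number of reads. A relative depth was estimated from the spacing of low values, with the median library as its unit. It was 1.05 to 1.18 in RD Scramble and 0.862 to 1.00 in RD KDM3A-sh2, and 0.998 to 1.02 and 0.941 to 0.990 in the same groups of Rh30, so the groups did not overlap in depth in either line, and the part of this in the values below was not tested. Between 17473 and 17983 genes per library reached 1 FPKM. Changes are differences of log2(FPKM + 1) from limma with a mean-variance trend, and "adjusted p" is the Benjamini-Hochberg adjusted p over all genes tested, with a threshold of 0.05.

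KDM3A itself checks the labels. In RD cells its expression was 35.8, 33.9 and 30.9 FPKM in the Scramble libraries and 12.0, 11.2 and 13.4 FPKM in the KDM3A-sh2 libraries (log2 change -1.39, SE 0.08, adjusted p = 5e-05 by limma). In Rh30 cells it was 27.8, 29.2 and 32.0 FPKM with Scramble and 13.7, 13.2 and 15.4 FPKM with KDM3A-sh2 (log2 change -1.02, SE 0.08, adjusted p = 0.000348 by limma). The groups did not overlap in either line, and the Scramble levels of the lines overlapped.

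Markers of the labelled cells were present. MYOD1 and MYOG, the transcription factors that mark RMS, had means of 134 and 184 FPKM in RD Scramble and of 770 and 691 FPKM in Rh30 Scramble, and the muscle filament gene DES had 796 and 404 FPKM. MYF5, another myogenic factor, was below 0.1 FPKM in every library, and PAX7 was expressed in RD (25.2 FPKM) but was near 0 in Rh30 (0.0679 FPKM). PAX3 and FOXO1, the partners of the FP-RMS fusion, were at 55.5 and 49.6 FPKM in Rh30 Scramble and at 16.1 and 5.50 FPKM in RD Scramble. Several of these markers moved with KDM3A-sh2. In Rh30 cells MYOG rose by 0.56 (SE 0.05, adjusted p = 0.0004 by limma), PAX3 by 0.47 (SE 0.09, adjusted p = 0.0118 by limma) and MYOD1 by 0.28 (SE 0.07, adjusted p = 0.0222 by limma) on the log2 scale. In RD cells the differences were -0.91 for PAX3 (SE 0.12), -0.78 for PAX7 (SE 0.05), -0.24 for MYOD1 (SE 0.04), -0.14 for MYOG (SE 0.05) and 0.23 for DES (SE 0.07). Of 6 markers of other cell types, 4 had means under 1 FPKM in both RD groups (PTPRC, PECAM1, EPCAM and CDH1) and 3 in both Rh30 groups (PTPRC, PECAM1 and CDH1). Their summed level was 49.5 to 54.7 FPKM in RD Scramble and 56.8 to 60.3 FPKM in RD KDM3A-sh2, most of it KRT18, with mean CD34 at 6.92 and 15.7 FPKM. In Rh30 cells the sum was 11.5 to 12.4 FPKM with Scramble and 10.9 to 12.7 FPKM with KDM3A-sh2, where KRT18 (4.66 and 3.49 FPKM) and EPCAM (4.63 and 6.03 FPKM) made up most of it. The part of these genes in the results was not tested. In bulk RNA, fewer cells of a type and less RNA per cell cannot be told apart.

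Each line had its own order of HMG gene levels in control cells. In RD Scramble, HMGA1 (353 FPKM) and HMGB2 (339 FPKM) were highest and overlapped between libraries. They were followed by HMGN1 (259.9 FPKM), HMGA2 (167 FPKM), HMGB1 and HMGN2 (both 116 FPKM, with libraries that overlapped), HMGN3 (102 FPKM), HMGB3 (67.9 FPKM), HMGN4 (50.5 FPKM) and HMGN5 (11.4 FPKM). In Rh30 Scramble, HMGB1 (594 FPKM) and HMGB2 (593 FPKM) were highest and overlapped, followed by HMGN1 (492 FPKM), HMGN2 (327 FPKM), HMGN3 (232 FPKM), HMGB3 (166 FPKM), HMGA1 (128 FPKM), HMGA2 (62.5 FPKM), HMGN4 (48.3 FPKM) and HMGN5 (21.9 FPKM). Neighbors in these orders that are not named as overlapping were apart in every library. The orders hold for the gene entries as listed, without their pseudogene entries, which in the Scramble groups summed to 8.49 and 8.55 times the FPKM of HMGN2, 3.13 and 3.12 times that of HMGN3, 0.900 and 0.828 times that of HMGB1, 0.713 and 0.661 times that of HMGN1, 0.488 and 0.460 times that of HMGA1, 0.206 times that of HMGB3 in both lines and 0.0368 and 0.0431 times that of HMGB2, in RD and Rh30. By its mean over all 12 libraries, HMGB2 was above 99.4% of all genes in the table (unexpressed ones included), and HMGN5, the lowest of the 10, above 86.7%.

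**Figure D1:**
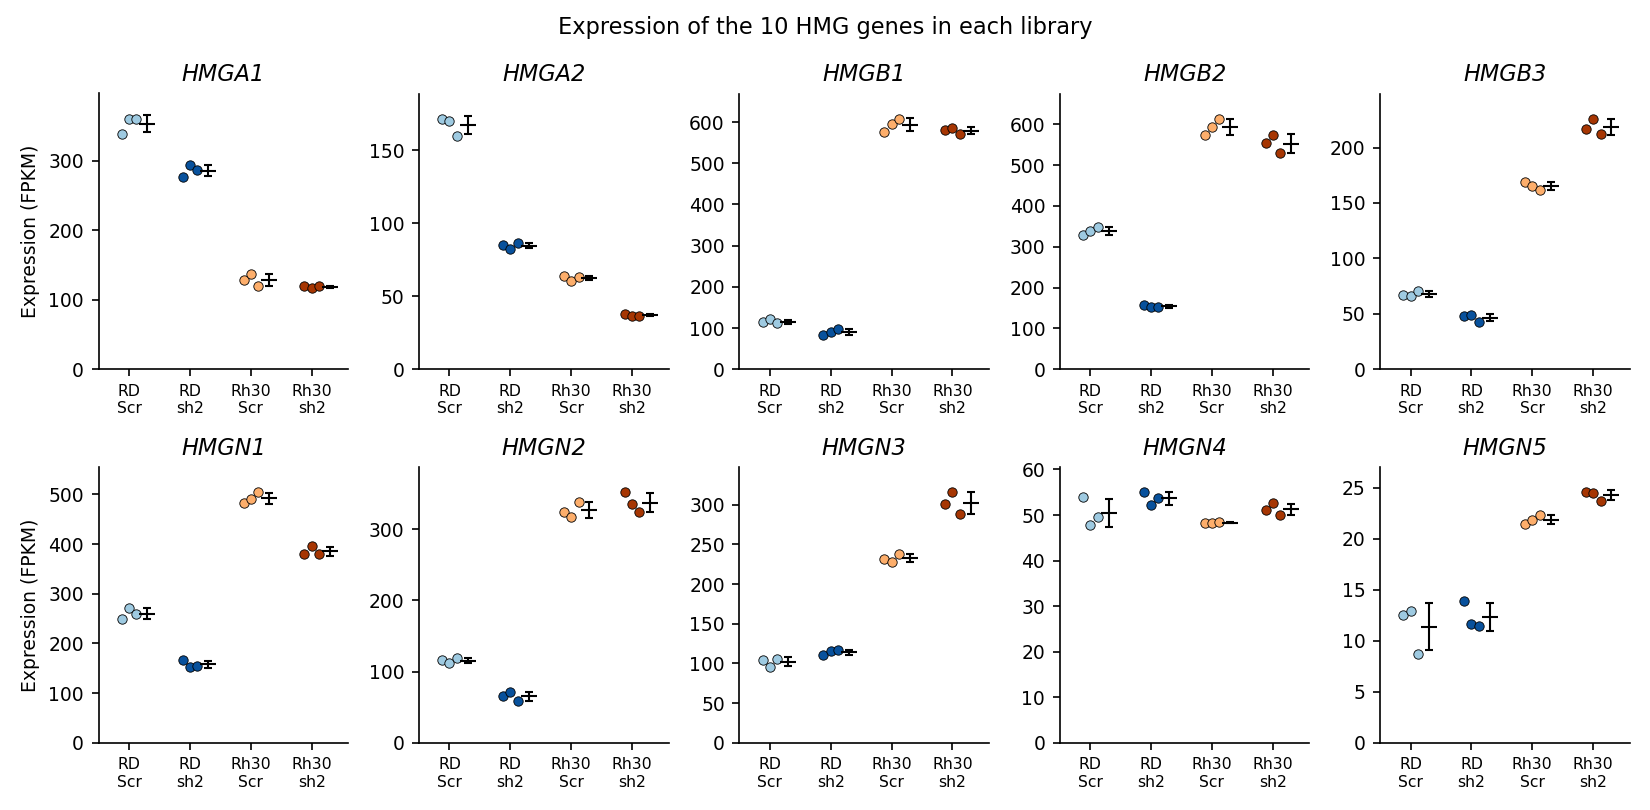
Expression in FPKM (y axis, linear, from 0) of the 10 HMG genes in each library, for Scramble (Scr) and KDM3A-sh2 (sh2) in RD and Rh30 cells; points are single libraries (n = 3 per group), and the bar beside them is the mean with its SD. HMGB2 drops in RD from 339 to 154 FPKM while its Rh30 groups overlap, HMGA2 is lower with KDM3A-sh2 in both lines, and HMGB3 goes down in RD and up in Rh30.

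The difference between the lines was tested in the Scramble libraries for 9 of the genes (HMGB2, the gene chosen through RD, was left untested). The HMGA genes were lower in Rh30 than in RD, and the HMGB and HMGN genes apart from HMGN4 were higher. Of the 9, 2 were called lower and 6 higher, in a comparison that called 39.6% of all 18357 genes tested lower and 35% higher. HMGA1 had a log2 difference (Rh30 minus RD) of -1.46 (SE 0.06, adjusted p = 5.73e-07 by limma), and HMGA2 one of -1.41 (SE 0.04, adjusted p = 2.22e-07 by limma). The largest of the 9 was that of HMGB1, 2.35 (SE 0.04, adjusted p = 2.47e-08 by limma), a mean 5.12 times that of RD. HMGN2 followed with 1.49, then HMGB3 with 1.27, HMGN3 with 1.18, HMGN1 with 0.92 and HMGN5 with 0.90 (adjusted p from 1.56e-07 to 0.00077 by limma). HMGN4 did not pass the test (-0.060, SE 0.05, adjusted p = 0.333 by limma). HMGB2 was 0.80 higher in Rh30 on the same scale (SE 0.04).

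With KDM3A-sh2, HMGA2 and HMGN1 fell in Rh30 cells and HMGB3 and HMGN3 rose, while HMGB2 and the other 5 genes did not pass the test. These 2 lower and 2 higher calls stand beside 13.2% of 17803 genes called lower and 15.3% called higher in Rh30. The median log2 change of the 10 genes was 0.0057, beside 0.031 over all genes tested. The Rh30 groups did not overlap for 2 genes that were lower and 4 that were higher with KDM3A-sh2, beside 20.2% and 25.6% of all genes. In RD cells, 7 of the 10 genes were lower in every KDM3A-sh2 library than in any Scramble library, 1 was higher and 2 overlapped. Of all 17988 genes tested in RD, 25.3% were lower and 28.1% higher by the same criterion, and nothing is read from the count, since RD chose the set. The median log2 difference of the 10 genes in RD was -0.45, beside 0.0067 over all genes tested.

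**Figure D2:**
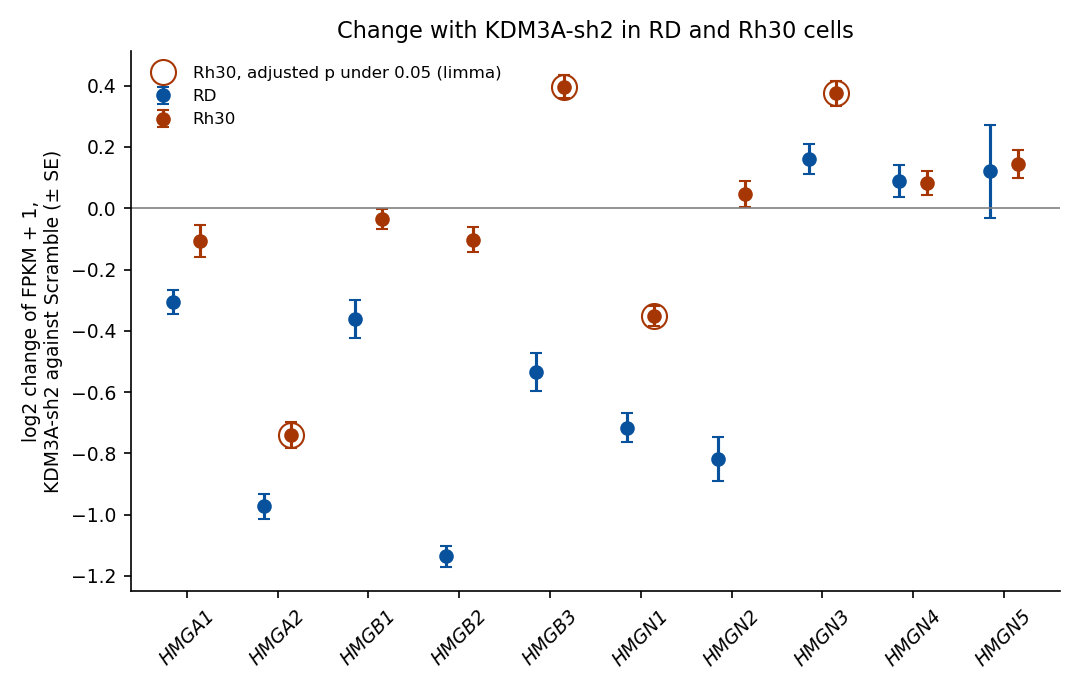
Log2 change of FPKM + 1 with KDM3A-sh2 against Scramble (y axis, with SE, n = 3 libraries per group) for each HMG gene in RD and Rh30 cells; circles mark the Rh30 changes that passed the test. In RD the values run from -1.14 for HMGB2 to 0.16 for HMGN3, and in Rh30 from -0.74 for HMGA2 to 0.40 for HMGB3.

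HMGA2 (ENSG00000149948; GRCh38 chr12:65824131-65966295, plus strand), an oncofetal AT-hook protein that is silent in most adult tissues, was lower with KDM3A-sh2 in both lines. In Rh30 cells it was 63.5, 60.8 and 63.3 FPKM with Scramble and 38.0, 36.5 and 36.6 FPKM with KDM3A-sh2. The groups did not overlap, and the log2 change was -0.74 (SE 0.04, adjusted p = 0.000124 by limma). The RD libraries had 172, 170.2 and 160.0 FPKM with Scramble and 85.0, 82.7 and 86.4 FPKM with KDM3A-sh2. These did not overlap either, and the KDM3A-sh2 mean was 0.506 times that of Scramble, a log2 difference of -0.97 (SE 0.04). Genes whose groups were lower in this way in both lines made up 9.36% of 18517 genes. The difference between the lines' changes was 0.23 (SE 0.05), and it was not tested, since the RD change chose the set.

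HMGA2 is a textbook target of the let-7 microRNAs, whose maturation the RNA-binding protein LIN28B blocks, so its let-7 sites are shown here. The 9 human let-7 and miR-98 sequences in RefSeq share 1 seed. The seed, bases 2 to 8, is in capitals for 3 of them.
hsa-let-7a-5p: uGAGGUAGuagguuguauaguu
hsa-let-7g-5p: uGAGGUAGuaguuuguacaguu
hsa-miR-98-5p: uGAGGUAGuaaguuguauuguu
The complement of the seed, CTACCTC, was searched on the transcript strand of the annotated 3′ UTRs (GENCODE 29), taking for each gene the transcript with the most matches. HMGA2 had 4 matches in a 3′ UTR of 3003 bases, and 0.0872% of 12612 genes had that many or more. HMGA1 had 1, and 12.1% of genes had at least 1. The windows around them (GRCh38, plus strand) have the match in capitals.
HMGA2 chr12:65963299-65963323: ccaacgttcgatttCTACCTCagca
HMGA2 chr12:65964534-65964558: cccactactcaataCTACCTCtgaa
HMGA2 chr12:65964946-65964970: tgacttgcaaagacCTACCTCcaga
HMGA2 chr12:65965799-65965823: atcaaaacacactaCTACCTCttaa
HMGA1 chr6:34245830-34245854: cctctgttcacaaaCTACCTCtgga
The other 8 genes held no match. These are matches of letters only, and mature microRNAs were not measured here.

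The LIN28, let-7 and HMGA2 related genes comprised 12 genes, of which 10 were tested in each line. In Rh30 cells 6 of the 10 fell and none rose, with a median log2 change of -0.32, where 13.2% of all genes were called lower and 15.3% higher. In RD cells 6 passed the threshold as lower and 2 as higher, with a median of -0.44, where 19.5% of all genes were called lower and 21.6% higher. LIN28B was at 8.35, 8.34 and 9.09 FPKM with Scramble in Rh30 cells and at 2.28, 2.51 and 2.38 FPKM with KDM3A-sh2. It fell by 1.50 on the log2 scale there (SE 0.08, adjusted p = 0.000122 by limma). In RD cells it went from 13.2, 11.2 and 11.3 FPKM to 2.70, 2.68 and 2.69 FPKM (log2 difference -1.80, SE 0.09). IGF2BP2, an RNA-binding protein gene that HMGA2 is known to activate, fell in Rh30 cells from 56.7 to 36.6 FPKM (log2 change -0.62, SE 0.07, adjusted p = 0.00117 by limma) and ARID3B, an AT-rich DNA-binding protein gene with known let-7 sites, from 21.2 to 13.5 FPKM (log2 change -0.62, SE 0.06, adjusted p = 0.000814 by limma). In RD cells ARID3B differed by -0.75 (SE 0.08) and DNA2, a helicase and nuclease of DNA replication, by -0.57 (SE 0.10). Whether the lower levels of these genes and of HMGA2 are connected was not tested.

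**Figure D3:**
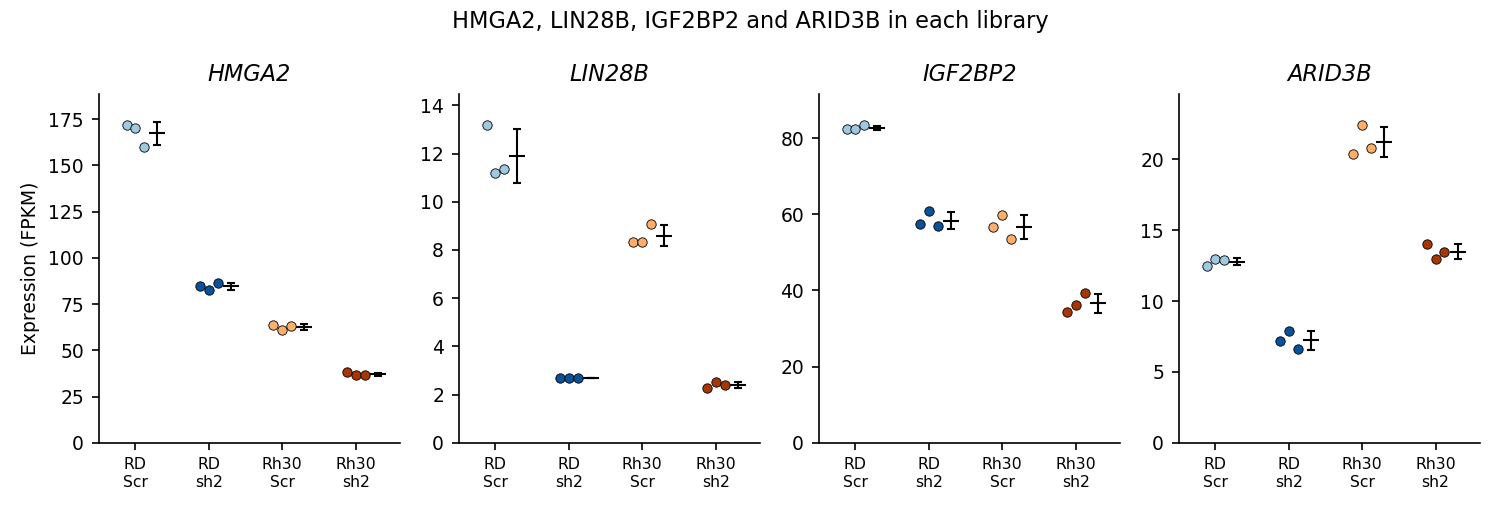
Expression in FPKM (y axis, linear, from 0) of HMGA2, LIN28B, IGF2BP2 and ARID3B in each library (points, n = 3 per group) with the mean and SD of each group. Within each line all 3 KDM3A-sh2 libraries lie below all 3 Scramble libraries for each of the 4 genes, with LIN28B going from 8.59 to 2.39 FPKM in Rh30 and from 11.9 to 2.69 FPKM in RD.

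HMGA1 (ENSG00000137309; chr6:34236873-34246231, plus strand), the widely expressed HMGA protein, showed a smaller difference. In RD it had 339, 360.3 and 360.4 FPKM with Scramble and 277, 293 and 286 FPKM with KDM3A-sh2, groups that did not overlap (log2 difference -0.31, SE 0.04). In Rh30 it had 128, 136 and 119.6 FPKM with Scramble and 119.7, 117 and 119 FPKM with KDM3A-sh2. Those groups overlapped, and the change did not pass the test (-0.11, SE 0.05, adjusted p = 0.169 by limma). It passed without Scramble library 3 (-0.15, adjusted p = 0.0466 by limma), and was smaller without Scramble library 2 (-0.060, adjusted p = 0.369 by limma). Both HMGA genes together summed to 520.4 ± 10.1 FPKM with Scramble and 370.0 ± 7.3 with KDM3A-sh2 in RD, and to 190.5 ± 7.19 and 156 ± 2.14 in Rh30 (SD, n = 3 each). HMGA2 made up 32.2% ± 1.45 and 32.9% ± 1.9 of this sum in the Scramble groups of RD and Rh30, and 22.9% ± 0.795 and 23.8% ± 0.309 in the KDM3A-sh2 groups (SD, n = 3 each).

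HMGB2 (ENSG00000164104; chr4:173331695-173335125, minus strand), an HMG-box protein that is abundant in dividing cells and is known to be lost in senescence, had the largest RD difference of the 10 genes. Its RD libraries had 329, 339 and 349 FPKM with Scramble and 157, 152 and 152 FPKM with KDM3A-sh2, or 0.453 times the Scramble mean (log2 difference -1.14, SE 0.03). Its Rh30 libraries had 573, 592 and 614 FPKM with Scramble and 555, 574 and 529 FPKM with KDM3A-sh2. These groups overlapped, and the change of -0.10 (SE 0.04) did not pass the test (adjusted p = 0.114 by limma). The difference between the lines' changes was 1.03 (SE 0.05) and was not tested, since the RD change in it chose the gene.

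HMGB1 (ENSG00000189403; chr13:30456704-30617597, minus strand) is an abundant nuclear protein of most cells and also acts outside them as an alarm signal. In RD its levels were 114, 121 and 112 FPKM with Scramble and 83.5, 89.7 and 97.2 FPKM with KDM3A-sh2 (log2 difference -0.36, SE 0.06), with no overlap. In Rh30 they were 577, 595 and 609 FPKM with Scramble and 581, 586 and 571 FPKM with KDM3A-sh2. The groups overlapped and the change did not pass the test (-0.035, SE 0.03, adjusted p = 0.45 by limma).

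HMGB3 (ENSG00000029993; chrX:150980509-150990775, plus strand), an X-linked member known from embryonic tissue and blood stem cells, moved in opposite directions in the lines. In Rh30 cells it was 169, 165 and 162 FPKM with Scramble and 216, 226 and 212 FPKM with KDM3A-sh2, and it rose by 0.40 on the log2 scale (SE 0.04, adjusted p = 0.000707 by limma). In RD cells it was 66.6, 66.1 and 70.9 FPKM with Scramble and 48.2, 48.8 and 42.8 FPKM with KDM3A-sh2 (log2 difference -0.53, SE 0.06). No library crossed the other group in either line, a pattern of higher in Rh30 and lower in RD that 3.62% of 18517 genes had. The changes differed by 0.93 between the lines (SE 0.07), which was not tested, since the RD change chose the set.

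The 3 HMGB genes summed to 523 ± 11.1 FPKM with Scramble and 291 ± 1.35 with KDM3A-sh2 in RD, and to 1352 ± 32.6 and 1350.0 ± 36.8 in Rh30 (SD, n = 3 each). In RD, HMGB2 made up 64.9% ± 0.658 of the sum with Scramble and 52.9% ± 1.32 with KDM3A-sh2, and HMGB1 22.2% ± 1.01 and 31.0% ± 2.23. In Rh30, HMGB2 made up 43.9% ± 0.444 and 40.9% ± 0.533, and HMGB3 12.3% ± 0.563 and 16.2% ± 0.157 (SD, n = 3 each). The sums and shares were not tested.

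**Figure D4:**
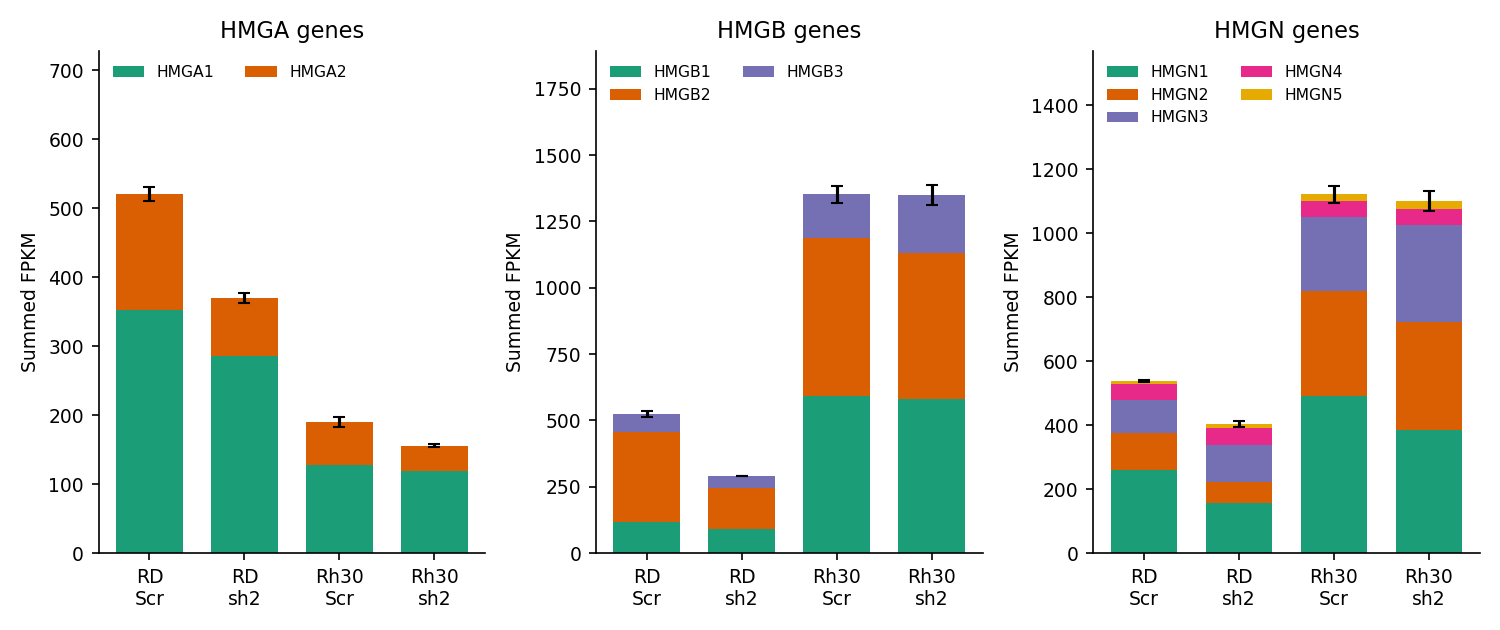
Summed FPKM (y axis, from 0) of the HMGA, HMGB and HMGN genes in each group, stacked by the group mean of each gene, with the SD of the sum over 3 libraries. In Rh30 the HMGB and HMGN sums differ between Scramble and KDM3A-sh2 by less than their SDs, while in RD all 3 sums are lower with KDM3A-sh2.

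HMGN1 (ENSG00000205581; chr21:39342315-39349647, minus strand), a nucleosome-binding protein, was lower with KDM3A-sh2 in both lines. The Rh30 libraries had 482, 490.3 and 505 FPKM with Scramble and 381, 396 and 379 FPKM with KDM3A-sh2, and it fell by 0.35 on the log2 scale (SE 0.03, adjusted p = 0.000737 by limma). The RD libraries had 249, 271 and 259.5 FPKM with Scramble and 166, 153 and 154 FPKM with KDM3A-sh2 (log2 difference -0.72, SE 0.05). The groups were apart in both lines. The changes of the lines differed by 0.36 (SE 0.06), which was not tested.

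HMGN2 (ENSG00000198830; chr1:26472450-26475972, plus strand), another widely expressed HMGN protein, had levels that were apart in RD and overlapped in Rh30. In RD they were 116, 111 and 119.5 FPKM with Scramble and 66.1, 71.1 and 58.6 FPKM with KDM3A-sh2, with no overlap (log2 difference -0.82, SE 0.07). In Rh30 they were 324, 318 and 339 FPKM with Scramble and 352, 336 and 324 FPKM with KDM3A-sh2, groups that overlapped (log2 change 0.046, SE 0.04, adjusted p = 0.459 by limma). This left a difference between the changes of 0.86 (SE 0.09), which was not tested.

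HMGN3 (ENSG00000118418; chr6:79201245-79234738, minus strand), known from endocrine and eye tissue, had higher levels with KDM3A-sh2. In Rh30 cells it was 231, 228 and 238 FPKM with Scramble and 301, 316 and 288 FPKM with KDM3A-sh2, and it rose by 0.37 on the log2 scale (SE 0.04, adjusted p = 0.00141 by limma). In RD cells it was 105, 95.6 and 106 FPKM with Scramble and 111, 115 and 117 FPKM with KDM3A-sh2, a difference of 0.16 (SE 0.05) without overlap.

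HMGN4 (ENSG00000182952; chr6:26538405-26546254, plus strand), a copy of HMGN2 that became a gene of its own, varied least, from 47.9 to 55.0 FPKM over all 12 libraries. HMGN5 (ENSG00000198157; chrX:81113701-81201942, minus strand), an X-linked member with a long acidic tail, was the lowest at 8.70 to 24.6 FPKM. Neither passed the test in Rh30 cells, with log2 changes of 0.082 (SE 0.04, adjusted p = 0.155 by limma) and 0.14 (SE 0.05, adjusted p = 0.0568 by limma), although the KDM3A-sh2 libraries lay above the Scramble libraries for both. In RD cells the groups overlapped for both, with differences of 0.089 (SE 0.05) and 0.12 (SE 0.15), and that of HMGN5 was -0.046 without Scramble library 3. The 5 HMGN genes summed to 539 ± 3.48 FPKM with Scramble and 403 ± 8.62 with KDM3A-sh2 in RD, and to 1122 ± 26.7 and 1100.3 ± 30.9 in Rh30 (SD, n = 3 each). HMGN1 made up 43.9% ± 0.393 of the Rh30 sum with Scramble and 35.0% ± 0.656 with KDM3A-sh2, and HMGN3 20.7% ± 0.134 and 27.4% ± 0.564.

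Several HMG genes have many processed pseudogenes, which are intronless copies whose reads can be hard to tell from those of the gene, so levels of the gene and the copies are uncertain where they share letters. The table held 149 pseudogene entries of 7 of the genes (none for HMGA2, HMGN4 and HMGN5), of which 46 had a mean of at least 1 FPKM and 15 of at least 10 FPKM. The 15 were 93.0 to 99.6% identical to their parent transcript. The extreme case is HMGN2P5 (chr15:29730713-29730985, plus strand), which spans 273 bases and has 1 difference from HMGN2, in capitals here.
HMGN2P5: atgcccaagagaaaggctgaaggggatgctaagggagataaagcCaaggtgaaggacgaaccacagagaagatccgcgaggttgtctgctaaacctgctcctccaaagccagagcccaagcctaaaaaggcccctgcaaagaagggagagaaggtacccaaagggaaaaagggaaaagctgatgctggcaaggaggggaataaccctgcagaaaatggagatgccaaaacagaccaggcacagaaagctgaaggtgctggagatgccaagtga
Its listed expression was 915 ± 38.6 FPKM in RD Scramble, 496 ± 20 in RD KDM3A-sh2, 2589.6 ± 60.6 in Rh30 Scramble and 2651 ± 115 in Rh30 KDM3A-sh2 (SD, n = 3 each). The 36 HMGN2 pseudogene entries together had 8.13 to 8.55 times the FPKM of HMGN2 itself in the 4 groups. FPKM is per length, and HMGN2P5 has 273 bases where the longest protein-coding transcript of HMGN2 has 1191. These are therefore not ratios of reads. Of the stretches of 50 bases in the HMGN2 transcript, 25.8% also occur in such a copy, compared with 13.0% for HMGN1, 12.1% for HMGB1, 4.69% for HMGA1, 3.82% for HMGB3, 0.544% for HMGB2 and 0% for HMGN3. The 10 genes share no stretch of this length with each other.

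The 15 abundant copies were fitted in the same way as the genes, and in Rh30 cells 2 of them fell, 1 rose and 12 did not pass the test. These counts stand beside 13.2% of all genes called lower there and 15.3% called higher. The 2 of 15 that fell are near the first of these shares. HMGN2P5 differed by -0.88 in RD (SE 0.04) and by 0.033 in Rh30 (SE 0.04, adjusted p = 0.573 by limma). HMGN1P38, a copy of HMGN1, fell in Rh30 cells from 263 ± 25.1 to 197 ± 0.211 FPKM (SD, n = 3 each; log2 change -0.41, SE 0.07, adjusted p = 0.00521 by limma) and differed by -0.78 in RD (SE 0.07), and HMGN1P36 fell in Rh30 cells by 0.58 on the log2 scale (SE 0.14, adjusted p = 0.022 by limma). HMGN1P4, the other HMGN1 copy of at least 10 FPKM, did not pass the test there (0.029, SE 0.15, adjusted p = 0.903 by limma). HMGN3P1 rose in Rh30 cells from 724 to 884 FPKM (log2 change 0.29, SE 0.05, adjusted p = 0.0081 by limma). HMGB1P5, the most abundant HMGB1 copy, was at 412 and 395 FPKM in the Rh30 groups (log2 change -0.061, SE 0.04, adjusted p = 0.276 by limma) and differed by -0.54 in RD (SE 0.04). The 3 HMGA1 copies differed by -0.46 to -0.35 in RD and had changes of -0.20 to 0.26 in Rh30 that did not pass the test (adjusted p from 0.227 to 0.53 by limma). The copies are not independent of their parents where reads are shared. When each gene was summed with its pseudogene entries and the table fitted again, HMGN1 had a log2 change of -0.38 in Rh30 (adjusted p = 0.000625 by limma), HMGN3 0.31 (adjusted p = 0.00296 by limma), HMGB3 0.38 (adjusted p = 0.00115 by limma) and HMGN2 0.022 (adjusted p = 0.663 by limma). The sums for HMGN2 and HMGN3 are mostly those of the pseudogene entries, which had 8.55 and 3.12 times the FPKM of the gene in Rh30 Scramble. For these genes the summed fit says little about the gene itself. Other annotated genes overlap HMGA1, HMGA2, HMGB1, HMGN1 and HMGN3, and their means were at most 2.82 FPKM.

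**Figure D5:**
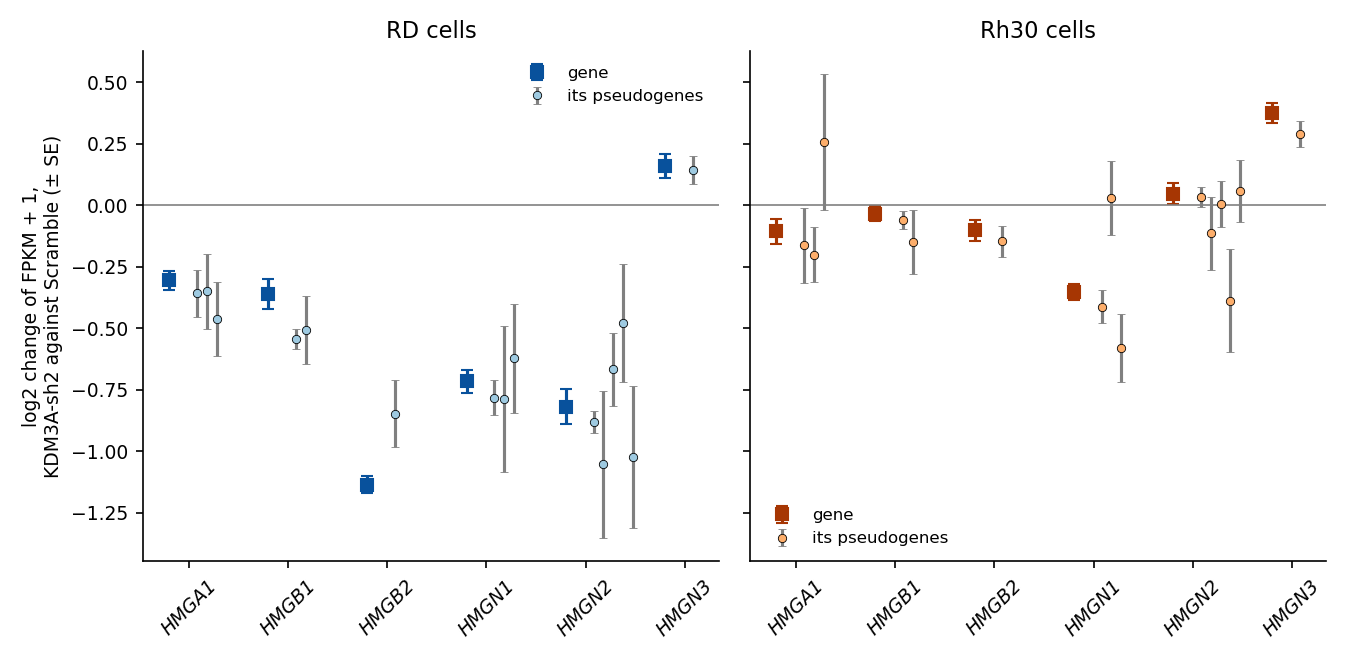
Log2 change of FPKM + 1 with KDM3A-sh2 against Scramble (y axis, with SE, n = 3 libraries per group) for 6 HMG genes (squares) and their 15 pseudogene entries with a mean of at least 10 FPKM (circles), in RD and Rh30 cells. HMGN2P5 lies at -0.88 in RD and 0.033 in Rh30, beside -0.82 and 0.046 for HMGN2.

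HMGN1 and HMGB3 were called in opposite directions in Rh30 and were both lower in RD, and a RefSeq promoter window of each is shown for comparison (GRCh38.p14, 250 bases before to 50 after the annotated start, gene strand). Capitals mark CCAAT, or ATTGG where it lies on the other strand.
HMGN1 chr21:39349039-39349338: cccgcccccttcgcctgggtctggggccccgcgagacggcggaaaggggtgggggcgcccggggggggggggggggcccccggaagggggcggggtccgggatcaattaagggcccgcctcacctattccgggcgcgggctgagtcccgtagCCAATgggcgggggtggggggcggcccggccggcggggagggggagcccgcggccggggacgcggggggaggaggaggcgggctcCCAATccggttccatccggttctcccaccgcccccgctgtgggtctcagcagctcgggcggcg
HMGB3 chrX:150983085-150983384: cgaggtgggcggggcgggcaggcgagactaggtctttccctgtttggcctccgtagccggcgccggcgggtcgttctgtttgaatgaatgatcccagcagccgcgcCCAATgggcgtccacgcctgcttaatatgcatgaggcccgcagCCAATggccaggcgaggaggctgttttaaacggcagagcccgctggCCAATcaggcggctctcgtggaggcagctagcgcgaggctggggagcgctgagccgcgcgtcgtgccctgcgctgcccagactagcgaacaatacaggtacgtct
The HMGN1 window held 2 CCAAT words and this HMGB3 window 3, while the other RefSeq window of HMGB3 (chrX:150984141-150984440) held none. Of 35116 promoter windows in the table, 34.6% held CCAAT and 10.8% held it more than once. Windows were given for 8 of the 10 genes, 12 in all. HMGA2 and HMGB2 had no window, so no word was counted for them. Of the 12 windows, 8 held CCAAT, and they belong to HMGA1, HMGB1, HMGB3, HMGN1, HMGN2 and HMGN3. TTTGAA was in this HMGB3 window and in 1 HMGB1 window, compared with 15.2% of all windows, and TTCGAA, TTTCCCGC and TTTGGCGC were in none of the 12, compared with 1.45%, 1.63% and 0.652% of all windows. All words were counted on both strands. A word match is a description of these letters and not a binding site.

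The 7-base word TGAAGCA, which an earlier reading of these data had picked out, was also counted. It was in no annotated 3′ UTR of the 10 genes, whereas 18.7% of 11732 genes tested in Rh30 with an annotated 3′ UTR held it. Among the 1929 of these genes that were called lower in Rh30, 30.8% held TGAAGCA. The let-7 word CTACCTC was in 12.3% of the 11732 genes and in 14.7% of the 1929. These shares are given without a test. Since TGAAGCA was picked out in these same data, its share among the genes called lower is not an independent result. The 3′ UTR lengths of the gene sets were not compared.

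Linker histones, which HMGN proteins compete with, were represented by 8 genes, of which 3 reached the limit of 1 FPKM. Libraries of polyA RNA do not cover transcripts without a polyA tail, so the rest, which were not tested, are not read as unexpressed. In Rh30 cells 1 of the 3 fell and none rose, beside 13.2% and 15.3% of all genes. H1F0, the replacement linker histone, fell in Rh30 cells from 197 ± 1.15 to 134 ± 2 FPKM (SD, n = 3 each; log2 change -0.56, SE 0.03, adjusted p = 0.00012 by limma). H1FX and HIST1H1C did not pass the test there (-0.091, adjusted p = 0.363, and 0.097, adjusted p = 0.435, by limma). In RD cells all 3 passed the threshold as lower, beside 19.5% of all genes, with differences of -1.18 for H1F0 (SE 0.04), -1.05 for H1FX (SE 0.06) and -0.35 for HIST1H1C (SE 0.04).

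The 28 other HMG-box genes, which encode remodeler subunits and transcription factors, were split. In Rh30 cells 8 of 28 fell and 5 rose (median log2 change -0.044), beside 13.2% of all genes called lower and 15.3% higher. The largest changes there were rises of the transcription factor genes TOX, SOX6 and SOX5. TOX went from 4.55 to 8.87 FPKM (log2 change 0.83, SE 0.07, adjusted p = 0.000576 by limma). SOX6 was low, going from 1.41 to 2.76 FPKM (0.64, SE 0.14, adjusted p = 0.0182 by limma). SOX5 went from 6.13 to 9.57 FPKM (0.55, SE 0.15, adjusted p = 0.0365 by limma), with KDM3A-sh2 libraries at 7.66, 12.2 and 8.89 FPKM. In RD cells 9 of 26 were called lower and 6 higher, beside 19.5% and 21.6% of all genes. Without TOX, which averaged 0.766 FPKM in the Scramble libraries and 1.43 FPKM after depletion and so passed the limit through the higher group alone, the counts were 9 and 5 of 25. The largest differences were those of WDHD1, a replication protein (-0.78, SE 0.12), SOX13 (-0.70, SE 0.08) and PBRM1, a subunit of the PBAF remodeler (-0.65, SE 0.09).

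HMGB2 is a subunit of the SET complex, a group of DNA-processing proteins, of which 5 other genes were tested. In both lines 2 of them were called higher and 1 lower, beside 15.3% of all genes higher and 13.2% lower in Rh30 and 21.6% and 19.5% in RD. A count of 1 in 5 is near these shares. SET rose in Rh30 cells from 332 to 418 FPKM (log2 change 0.33, SE 0.04, adjusted p = 0.00182 by limma) and the exonuclease gene TREX1 from 14.5 to 20.9 FPKM (0.50, SE 0.07, adjusted p = 0.00366 by limma), while ANP32A fell by 0.17 on the log2 scale (SE 0.03, adjusted p = 0.0109 by limma). In RD cells SET differed by 0.30 (SE 0.03), TREX1 by 0.33 (SE 0.06) and ANP32A by -0.55 (SE 0.04).

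Of 11 receptors and partners of extracellular HMGB1, 5 were tested in each line, and in Rh30 cells only TLR4 passed the test, rising from 5.92 to 8.17 FPKM (log2 change 0.41, SE 0.07, adjusted p = 0.00878 by limma). HAVCR2 (0.37, SE 0.16, adjusted p = 0.133 by limma) and the proteoglycan gene SDC1 (0.17, SE 0.08, adjusted p = 0.172 by limma) did not. The 1 gene called higher stands beside 15.3% of all genes in Rh30. In RD cells 2 were called lower and none higher, beside 19.5% and 21.6% of all genes. AGER, the receptor RAGE, differed by -0.78 (SE 0.18), SDC1 by -0.50 (SE 0.05) and CXCR4 by 0.23 (SE 0.10).

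Proliferation genes moved with HMGB2 in RD. In RD cells 15 of 16 were called lower and none higher, beside 19.5% and 21.6% of all genes, with a median log2 difference of -0.95, led by RRM2 (-1.48, SE 0.05), LMNB1 (-1.25, SE 0.05) and TOP2A (-1.15, SE 0.05), which encode a nucleotide reductase subunit, a nuclear lamin and a topoisomerase. In Rh30 cells 4 of 16 fell and 1 rose, beside 13.2% and 15.3% of all genes, with a median of -0.092. There MCM5, a helicase subunit, rose by 0.37 (SE 0.04, adjusted p = 0.00171 by limma), LMNB1 fell by 0.28 (SE 0.04, adjusted p = 0.00312 by limma) and TOP2A fell by 0.23 (SE 0.05, adjusted p = 0.0149 by limma). The part of proliferation in the HMG values was not tested.

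Senescence-associated genes were of interest because HMGB2 loss accompanies senescence. In RD cells 3 of 14 were called lower and 8 higher (median 0.27), beside 19.5% and 21.6% of all genes. The largest differences were those of the stress cytokine gene GDF15 (from 8.81 to 41.9 FPKM, 2.13, SE 0.07) and the kinase inhibitor gene CDKN2B (0.92, SE 0.06). The 3 called lower were IL6 (-0.61, SE 0.10), CXCL8 (-0.39, SE 0.05) and IGFBP5 (-0.29, SE 0.06). In Rh30 cells 5 of 9 fell and none rose (median -0.55), beside 13.2% and 15.3% of all genes. The collagenase gene MMP1, with the largest value (-1.42, SE 0.21), averaged 1.93 FPKM in the Scramble libraries and 0.0773 FPKM after depletion, so it reached the limit of 1 FPKM only through the group in which it is high. Without it, counted after its values were seen, 4 of 8 fell (median -0.45). The chemokine gene CCL2 fell by 0.98 on the log2 scale from 7.61 FPKM (SE 0.12, adjusted p = 0.00227 by limma). The difference between the lines was not tested for these lists.

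The genes whose pattern over the 12 libraries was most like that of HMGB2, by Pearson's r of log2(FPKM + 1) among 11017 genes whose mean reached 10 FPKM, were AURKA, MCM3, FBXO5, RRM2 and KIFC1 (r from 0.997 to 0.998). AURKA had means of 148, 74.8, 267 and 239 FPKM in RD Scramble, RD KDM3A-sh2, Rh30 Scramble and Rh30 KDM3A-sh2. For HMGA2 they included MCFD2, CDC42SE1, PPIG and NID1 (r from 0.994 to 0.996), with means of MCFD2 of 195, 129.7, 102 and 76.9 FPKM in the same order. The 12 libraries form 4 groups of like samples, so these values reflect group means and carry no test.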

How the data were processed

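The data are 12 RNA-seq libraries of polyA RNA, 3 in each of 4 groups, grouped by the sample labels. The authors aligned single-end reads to GRCh38 with GSNAP, handled them with SAMtools (tools as in the submitters' processing notes) and deposited FPKM per gene from Cufflinks. Read length (the labels give a longer one than the Methods), annotation release and the strand setting of the counting are not settled by the sources used here. The table has 66095 entries for 65975 identifiers, and 120 repeats (the entry with the lower mean) were left out. The value 999999999, in 17 genes and in none of the HMG genes, was taken as missing, and 0 columns of per-sample values were left unused.

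A gene was tested when its mean reached 1 FPKM over the libraries in the fit. Tests were run on log2(FPKM + 1) with limma 3.58.1 in R 4.3.3 (lmFit, eBayes with trend, two-sided, Benjamini-Hochberg adjustment), checked on simulated data. Tables were made with Python 3.11.15, pandas 2.3.3, NumPy 2.4.6, SciPy 1.17.1 and Biopython 1.88, and figures with matplotlib 3.10.9. Identity to pseudogenes and shared words of 50 bases came from GENCODE 29 transcripts, and promoters and microRNAs from RefSeq.

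The HMG genes and all gene lists were chosen with earlier results of these data known. The genes named are the 10 HMG genes, KDM3A, pseudogene entries with a mean of at least 10 FPKM, the 3 tested genes that changed most in each list and line, and the 5 genes most correlated with HMGB2 and with HMGA2. Some items that this rule selects are not reported here. Genes named beyond this rule are cell type markers and IL6, CXCL8 and IGFBP5. Alternatives were another pseudocount, other filters, scaling, summed pseudogenes, a replicate block, ANOVA on FPKM, a fit over all libraries and leaving out each library.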

Additional observations from a re-analysis of the deposited data

Results flagged for a closer look

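HMGB3 stood out because its KDM3A-sh2 libraries all lay below the Scramble libraries in RD cells and above them in Rh30 cells. This pattern was seen in 3.62% of 18517 genes. The change of HMGB3 in Rh30 minus that in RD was 0.93 on the log2 scale. The difference was not tested, since the RD change chose the set.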

How the results depend on the processing

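The calls of HMGA2, HMGN1, HMGB3 and HMGN3 in Rh30 were kept under all 15 alternatives run, with log2 changes of -0.76 to -0.73, -0.38 to -0.33, 0.37 to 0.42 and 0.31 to 0.41 and adjusted p from limma or ANOVA of at most 0.0153. HMGN5 passed the threshold in Rh30 with no filter on low values (adjusted p = 0.0473 by limma), with at least 10 FPKM in 1 library (adjusted p = 0.0482 by limma) and by ANOVA on unlogged FPKM (adjusted p = 0.0263). HMGA1 passed it without Scramble library 3. HMGN4 was 0.016 higher in Rh30 than in RD Scramble under quantile normalization, the opposite sign, and the cause was not tested. Leaving out each library gave 2 to 3 HMG genes lower and 2 higher in Rh30, 2 lower and 6 higher between the lines, and median log2 values of the 10 genes from -0.46 to -0.43 in RD and from 0.25 to 0.31 for the difference between lines.

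Replicate numbers did not pair the samples. To check this, the departures of each library from its own group mean, gene by gene, were correlated between groups. The correlations are therefore not those of the expression levels themselves. Same-numbered libraries of Rh30 gave -0.25 to -0.09, those of RD -0.09 to -0.05 and the Scramble libraries of the lines -0.13 to 0.12. Libraries with different numbers gave 0.001 to 0.19 in Rh30, -0.008 to 0.096 in RD and -0.186 to 0.17 between the lines. Whether another numbering pairs the samples was not tested. With the replicate block, 2 HMG genes were again lower and 2 higher in Rh30, while the count of all genes called higher there went from 2719 to 1798. It went to 1621 without KDM3A-sh2 library 1 and to 1759 without library 2. Over the gene lists together, the alternatives gave 22 to 26 genes lower (25 as reported) and 7 to 11 higher (9 as reported) in Rh30, and 37 to 42 lower (39) and 15 to 19 higher (18) in RD, with 7 and 15 higher under the replicate block, so some list calls depend on the setting. FPKM hide the number of reads, so no counting error is given.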
